A study of Oryza sativa with 12 samples.

Results

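A set of 32 probes, out of 42477 on the array, read higher in *OsERF106MZ*-overexpressing rice shoots (OE) than in Tainung 67 (TNG67) shoots with and without NaCl, and hardly differed between 150 and 0 mM NaCl in either genotype. The members were chosen on these same measurements. A probe had to be well above background on all 12 arrays, to read at least 1 log2 unit (2-fold) higher in OE in all 3 replicate pairs at 150 mM and all 3 at 0 mM NaCl, and to have a mean difference between 150 and 0 mM NaCl of no more than 0.5 log2 units in each genotype, all in the deposited normalized values. The differences between genotypes and between NaCl conditions given here for the members therefore describe the set and are not tests of it. Of the 32 members, 20 could be paired with a rice locus and 12 could not.

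The shoots came from 8-day-old seedlings moved for 1 day to medium with 150 or 0 mM NaCl. The 4 groups of 3 arrays were OE at 150 mM, TNG67 at 150 mM, OE at 0 mM and TNG67 at 0 mM NaCl. OE carries *OsERF106MZ* behind the cauliflower mosaic virus 35S promoter, which is active in most tissues, in the Tainung 67 background, and TNG67 is the untransformed cultivar. The labels do not name the transgenic line, and the study made lines with and without a GFP tag, so OE may be a single transformant. ERF proteins are plant transcription factors of the AP2/ERF family, named after the ethylene-responsive factors, and many of them bind the GCC box in promoters and act in hormone, defence and abiotic stress responses. High NaCl changes the level of many shoot transcripts in rice within a day. A constitutively driven factor can alter genes under both conditions. The members are the probes for which a difference between genotypes under both conditions stood beside little change with NaCl. The cause of that difference was not tested. The level of *OsERF106* itself was not analysed here.

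Replicates 1 and 3 of OE lay on one slide, replicates 1 and 3 of TNG67 on another, and replicate 2 of all 4 groups on the third slide. Each slide had a scan time of its own, the first pair of slides on one day and the third on another. Pairs 1 and 3 thus compare the genotypes across slides, where slide and scan time cannot be told apart from genotype, and pair 2 compares them within a slide. Replicates 1 and 3 of a group correlated at r = 0.992 to 0.996 over probes and replicate 2 with either of them at 0.965 to 0.982. Between 79.3% and 88% of probes were well above background on an array. The sources call the arrays of a group biological repeats but do not settle if each had its own plants, so p-values measure only the spread between these arrays, which may be technical. A change in the share of a cell type and a change in RNA per cell cannot be told apart in whole shoots.

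The selection narrowed as follows. Of 31924 probes well above background on every array, 176 were at least 1 log2 unit higher in OE in all 6 pairs, and 32 of these (18.2%) lay in the NaCl window. The window held 14962 of the 31924 probes (46.9%). The other 144 raised probes lay outside the window: 52 were above 0.5 in both genotypes, 58 were below -0.5 in both, and 16 left the window in OE alone and 18 in TNG67 alone. Among the 144, 31 probes lay close together, near 2 units lower in OE at 150 mM than at 0 mM NaCl, and without them the window held 22.1% of the raised probes. Turning the direction round gave 106 probes at least 1 unit lower in OE in all 6 pairs, of which 38 (35.8%) lay in the window.

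**Figure D1:**
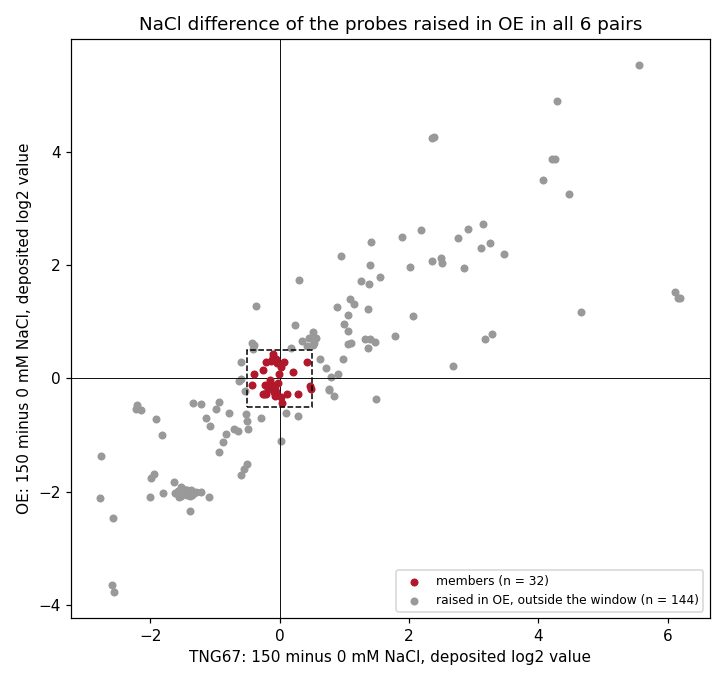
Mean difference between 150 and 0 mM NaCl in OE (y axis) and in TNG67 (x axis), in deposited log2 values, for the 176 probes at least 1 log2 unit higher in OE in all 6 pairs. The 32 members (red) fill the dashed square of ±0.5 that chose them, and the other 144 probes (grey) run from falls to rises that mostly have the same sign in both genotypes.

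Values below are log2 quantile-normalized signals, given for replicates 1, 2 and 3 in that order. Over the members, the median OE minus TNG67 difference was 1.71 at 150 mM NaCl (range 1.1 to 3.01) and 1.89 at 0 mM NaCl (range 1.06 to 3.38), against a median of -0.02 and 0.01 over all 37144 probes tested. A mean difference over 2.5 was found for 8 members, one between 1.5 and 2.5 for 14, and one under 1.5 for 10. The 8 include a group of 5 probes, described below, that gave nearly the same values and cannot be counted as separate genes. With limma, 29 members passed as higher in OE at 150 mM NaCl (adjusted p under 0.05 and over 2-fold), where 1.94% of all probes passed, and 30 at 0 mM NaCl, where 2.09% did. The rule used these same contrasts, so these counts support nothing. The 3 members that did not pass at 150 mM NaCl were CUST_17799, CUST_4434 and CUST_35284, and CUST_4434 and CUST_35284 also did not pass at 0 mM NaCl. With the replicate number as a block, all 32 passed in both comparisons, where 2.49% of all probes passed at 150 mM and 2.65% at 0 mM NaCl. With slide as a fixed block, 23 members and 1.11% of all probes passed at 150 mM NaCl, and 19 members and 1.49% at 0 mM NaCl. Every OE array read above every TNG67 array for 31 members at 150 mM NaCl, where 11.1% of all probes did so, and for 31 at 0 mM NaCl, where 16.5% did. Over all 12 arrays at once, every OE array read above every TNG67 array for 30 members and for 1.98% of all probes. The rule favours such separation. Statements below that the genotypes of a member did not overlap therefore only describe it.

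**Figure D2:**
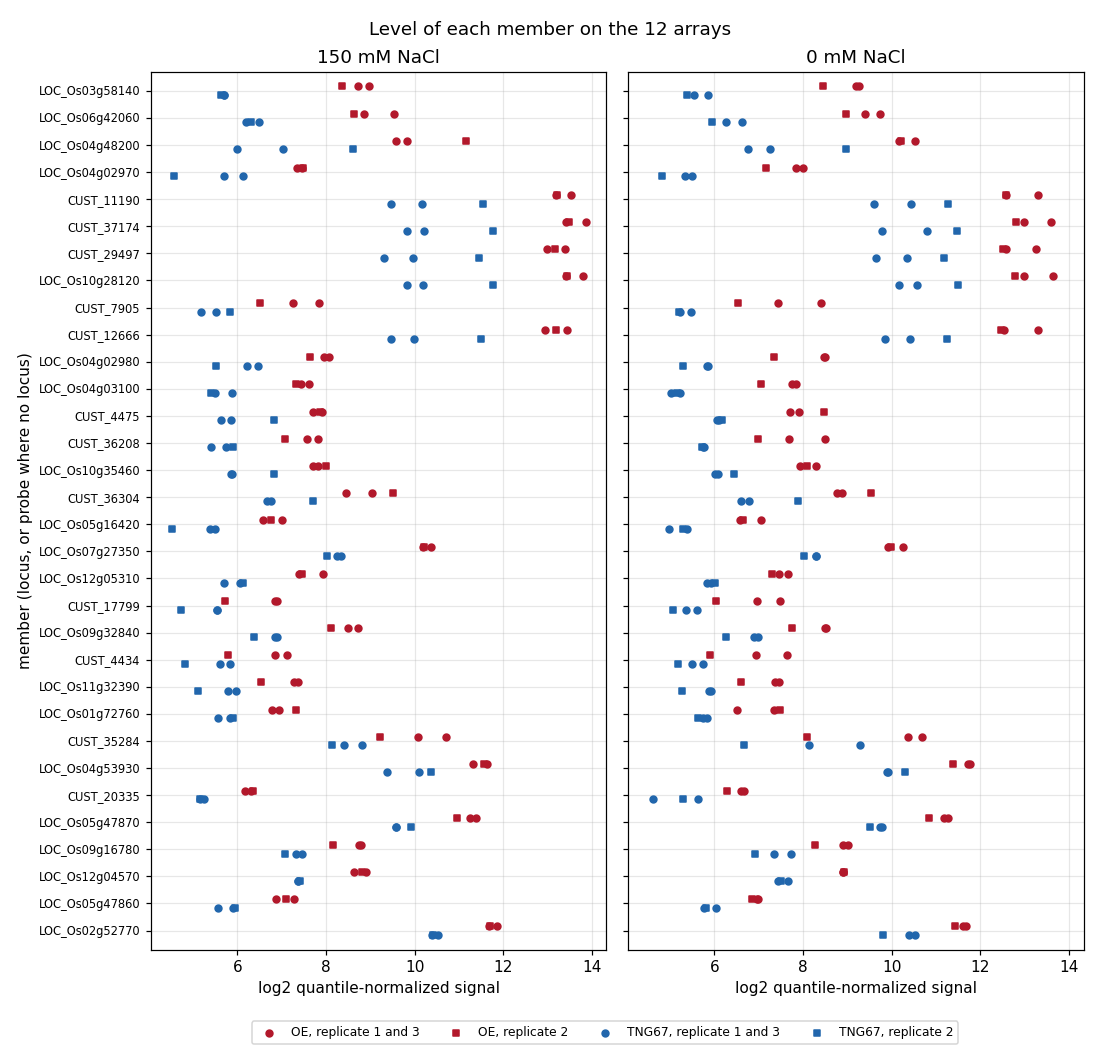
Log2 quantile-normalized signal (x axis) of each of the 32 members (y axis) on every array, at 150 mM NaCl (left) and 0 mM NaCl (right), with OE in red above TNG67 in blue, and squares for replicate 2. For 30 members all red points lie to the right of all blue points over both panels, as for 1.98% of all probes, and CUST_35284 at 0 mM NaCl and CUST_4434 at 150 mM NaCl are the members whose genotypes overlap.

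The largest difference was that of *LOC_Os03g58140* (*Os03g0795600*, chromosome 3). It read 8.97, 8.37 and 8.72 in OE against 5.71, 5.63 and 5.69 in TNG67 at 150 mM NaCl, and 9.2, 8.44 and 9.26 in OE against 5.85, 5.38 and 5.53 in TNG67 at 0 mM NaCl. The lowest OE array stood 2.52 units above the highest TNG67 array. The means were 8.69 ± 0.3 in OE and 5.68 ± 0.04 in TNG67 at 150 mM (SD, n = 3 each), an 8.06-fold difference, and 8.97 ± 0.46 in OE and 5.59 ± 0.24 in TNG67 at 0 mM (SD, n = 3 each), a 10.4-fold difference. In OE the mean was 0.28 lower at 150 than at 0 mM NaCl and in TNG67 it was 0.09 higher, both less than the SD of OE at 0 mM.

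*LOC_Os06g42060* (*Os06g0626200*, chromosome 6) came next by the mean difference over both conditions, although at 150 mM NaCl alone several members differed more. It read 8.87, 8.64 and 9.54 in OE against 6.19, 6.3 and 6.49 in TNG67 at 150 mM NaCl, and 9.39, 8.97 and 9.74 in OE against 6.25, 5.94 and 6.63 in TNG67 at 0 mM NaCl. The genotypes were 2 units apart at their nearest arrays, and the folds were 6.46 at 150 mM and 8.53 at 0 mM NaCl. These members kept most of their difference within the slide that holds both genotypes: pair 2 gave 2.75 at 150 mM and 3.06 at 0 mM for *LOC_Os03g58140*, and 2.34 and 3.03 for *LOC_Os06g42060*.

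*LOC_Os04g48200* (*Os04g0570500*, chromosome 4) followed by the same mean and varied far more among replicates. It read 9.59, 11.16 and 9.83 in OE against 5.99, 8.61 and 7.04 in TNG67 at 150 mM NaCl, and 10.17, 10.22 and 10.53 in OE against 7.26, 8.97 and 6.75 in TNG67 at 0 mM NaCl. Replicate 2 of TNG67 was the highest TNG67 array under both conditions. The OE minus TNG67 difference was 2.55 in pair 2 against a mean of 3.19 in pairs 1 and 3 at 150 mM NaCl, and 1.25 against 3.34 at 0 mM NaCl. The SD between TNG67 arrays was 1.32 at 150 mM and 1.16 at 0 mM, while the median SD of the members over the 4 groups was 0.32.

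A group of 5 members gave nearly the same values on every array: CUST_38097, paired with *LOC_Os10g28120* (*Os10g0416800*, chromosome 10), and CUST_11190, CUST_37174, CUST_29497 and CUST_12666, which have no locus here. With its own mean removed, each probe stayed within 0.2 units of their shared pattern on all arrays, no other probe of the array came closer than 0.96, and the 5 probes cannot be counted as separate genes. Their median signals were 13.52, 13.22 and 13.19 in OE against 9.47, 11.55 and 10.17 in TNG67 at 150 mM NaCl, and 12.58, 12.58 and 13.31 in OE against 9.79, 11.26 and 10.44 in TNG67 at 0 mM NaCl. The genotypes did not overlap, and replicate 2 of TNG67 was again the highest of its group. The mean difference of the 5 probes was 2.87 to 2.98 at 150 mM NaCl and 2.27 to 2.45 at 0 mM NaCl. It was 1.65 to 1.71 in pair 2 at 150 mM NaCl, against 3.97 to 4.08 in pair 1 and 2.95 to 3.22 in pair 3. At 0 mM NaCl pair 2 gave 1.23 to 1.35, against 2.7 to 3.19 in pair 1 and 2.8 to 3.09 in pair 3. The size of the difference of these probes differed between pair 2 and the pairs across slides, while the rule fixed its direction in every pair.

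Chromosome 4 held 5 of the 20 named members, more than any other, chromosome 5 held 3, and 11 chromosomes held at least 1. Of all 1632 probes with a locus, 11 lay in the stretch of chromosome 4 described below and 240 elsewhere on it. The count of 5 was not tested against these. Of the members on chromosome 4, *LOC_Os04g02970* (*Os04g0120100*), *LOC_Os04g02980* (*Os04g0120300*) and *LOC_Os04g03100* (*Os04g0121300*) lie close together, since these identifiers run in order along a chromosome. *LOC_Os04g02970* read 7.47, 7.48 and 7.35 in OE against 5.71, 4.58 and 6.13 in TNG67 at 150 mM NaCl, and 7.99, 7.16 and 7.84 in OE against 5.5, 4.81 and 5.33 in TNG67 at 0 mM NaCl. *LOC_Os04g02980* read 8.07, 7.64 and 7.95 in OE against 6.22, 5.51 and 6.47 in TNG67 at 150 mM NaCl, and 8.47, 7.35 and 8.49 in OE against 5.85, 5.29 and 5.84 in TNG67 at 0 mM NaCl. *LOC_Os04g03100* read 7.61, 7.32 and 7.44 in OE against 5.5, 5.41 and 5.88 in TNG67 at 150 mM NaCl, and 7.75, 7.05 and 7.84 in OE against 5.23, 5.15 and 5.01 in TNG67 at 0 mM NaCl. The 3 loci had OE minus TNG67 differences of 1.96, 1.82 and 1.86 at 150 mM NaCl and 2.45, 2.44 and 2.41 at 0 mM NaCl, with no overlap between genotypes. Within slide 3 the differences were 2.9, 2.12 and 1.91 at 150 mM and 2.36, 2.05 and 1.9 at 0 mM NaCl. In the means of all 3 the genotypes differed less at 150 than at 0 mM NaCl, but not within slide 3, where none of the 3 differences was smaller at 150 mM. The group means were -0.23 to -0.09 apart between 150 and 0 mM NaCl in OE and 0.26 to 0.46 apart in TNG67.

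Other loci of the same stretch, from *LOC_Os04g02490* to *LOC_Os04g03860*, were looked up because of these 3 members, with bounds chosen after their values were seen. Only probes that the study listed as differentially expressed carry a locus, so loci that did not change are missing from this comparison. The stretch held 11 named probes, of which 3 were the members, higher in OE by the rule. Of the other 8, 7 read higher in OE under both conditions and 0 lower under both, whereas of 238 named probes elsewhere on chromosome 4 that were not members, 99 were higher under both and 109 lower under both. *LOC_Os04g02490* had the widest separation: it read 10.46, 10.45 and 9.72 in OE against 4.12, 4.54 and 4.81 in TNG67 at 150 mM NaCl, and 9.74, 9.76 and 9.96 in OE against 4.08, 4.17 and 4.12 in TNG67 at 0 mM NaCl. It is not a member, since no TNG67 array was well above background for this probe and its NaCl difference in TNG67 was 0.64 in the deposited values. With dim TNG67 arrays set no lower than the dimmest probe well above background, OE was 51-fold higher at 150 mM and 49.8-fold higher at 0 mM NaCl. These folds depend on that floor and on the scale, since TNG67 was not detected. In the deposited values the smallest pair was 7.92 log2 units. *LOC_Os04g03860* was 1.89 higher in OE at 150 mM and 2.76 higher at 0 mM NaCl (1.25 and 2.61 in pair 2), and missed the window because it was 0.77 higher with NaCl in TNG67 in the deposited values. *LOC_Os04g02530*, 1.53 and 1.55 higher in OE, missed it because it was lower at 150 than at 0 mM NaCl by a like amount in both genotypes (-1.94 in OE and -1.92 in TNG67). The exception was *LOC_Os04g02690*, well above background on 3 arrays only, all of them OE, with a difference of 0.96 at 150 mM and 0 at 0 mM NaCl. The remaining 4 named loci of the stretch were 1.01 to 2.03 higher in OE at 150 mM NaCl and 1.09 to 2.54 higher at 0 mM NaCl. Within slide 3 at 150 mM NaCl, however, *LOC_Os04g02880* was only 0.2 and *LOC_Os04g02900* only 0.42 higher in OE.

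**Figure D3:**
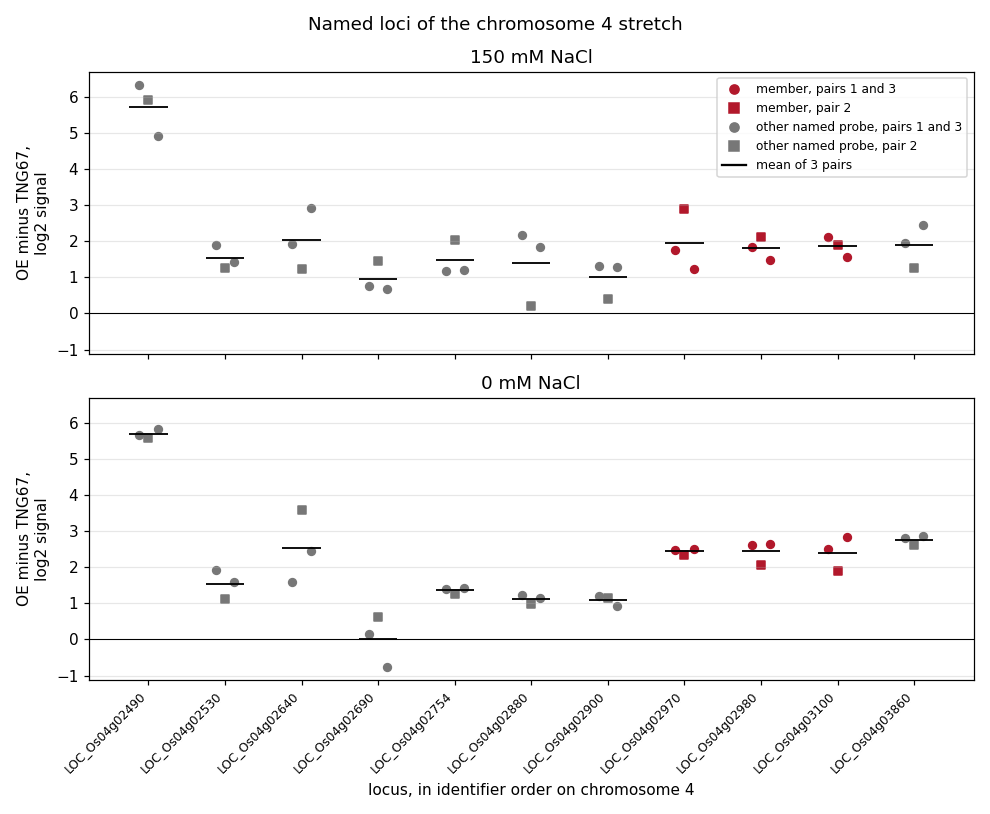
OE minus TNG67 difference in log2 signal (y axis) for the 11 named loci of the chromosome 4 stretch in identifier order (x axis), at 150 mM NaCl (top) and 0 mM NaCl (bottom), with circles for pairs 1 and 3, squares for pair 2 and a line for the mean of 3 pairs. The 3 members (red) lie at 1.82 to 1.96 at 150 mM and 2.41 to 2.45 at 0 mM NaCl, and *LOC_Os04g02490*, whose TNG67 arrays were not above background, stands highest.

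A second close pair lay on chromosome 5, *LOC_Os05g47860* (*Os05g0552000*) and *LOC_Os05g47870* (*Os05g0552100*), whose identifiers are next to each other. Both were placed on their probes by matching fold changes, as described under processing, so their closeness rests on that match. *LOC_Os05g47870* read 11.38, 10.95 and 11.24 in OE against 9.59, 9.93 and 9.58 in TNG67 at 150 mM NaCl, and 11.18, 10.84 and 11.27 in OE against 9.79, 9.51 and 9.73 in TNG67 at 0 mM NaCl. *LOC_Os05g47860* read 6.88, 7.11 and 7.27 in OE against 5.56, 5.95 and 5.91 in TNG67 at 150 mM NaCl, and 6.99, 6.84 and 6.97 in OE against 6.04, 5.81 and 5.77 in TNG67 at 0 mM NaCl. Neither overlapped between genotypes, and the folds were 2.81 and 2.42 at 150 mM and 2.68 and 2.08 at 0 mM NaCl. Of the next named loci, *LOC_Os05g48000* was also higher in OE (1.68 at 150 mM and 1.79 at 0 mM NaCl) but was not well above background on every array and had NaCl differences of -0.7 in OE and -0.59 in TNG67, and *LOC_Os05g48210* was lower in OE (-1.32 and -1.17). Chromosome 12 held *LOC_Os12g04570* and *LOC_Os12g05310*, also placed by matching fold changes. However, the named locus between them, *LOC_Os12g05020*, was lower in OE (-1.99 at 150 mM and -1.43 at 0 mM NaCl).

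Some members were even across replicates. *LOC_Os12g04570* (*Os12g0140000*) read 8.64, 8.82 and 8.9 in OE against 7.36, 7.41 and 7.36 in TNG67 at 150 mM NaCl, and 8.91, 8.92 and 8.91 in OE against 7.44, 7.5 and 7.65 in TNG67 at 0 mM NaCl. Its 6 pairs lay between 1.26 and 1.54, and its arrays were 0.99 units apart between genotypes. *LOC_Os07g27350* (*Os07g0457300*, chromosome 7) combined an even pattern with a larger difference, reading 10.36, 10.21 and 10.19 in OE against 8.34, 8.02 and 8.25 in TNG67 at 150 mM NaCl, and 9.91, 9.99 and 10.25 in OE against 8.28, 8.01 and 8.3 in TNG67 at 0 mM NaCl. Its folds were 4.14 and 3.61, and its pair 2 was as large as the others or larger, at 2.2 and 1.98. Less even at 0 mM NaCl, *LOC_Os02g52770* (*Os02g0766600*, chromosome 2) read 11.68, 11.7 and 11.85 in OE against 10.4, 10.42 and 10.52 in TNG67 at 150 mM NaCl, and 11.67, 11.43 and 11.6 in OE against 10.53, 9.8 and 10.4 in TNG67 at 0 mM NaCl, folds of 2.45 and 2.5 with no overlap.

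Of the other named members, *LOC_Os10g35460* was 3.14-fold higher in OE at 150 mM and 3.82-fold higher at 0 mM NaCl, *LOC_Os12g05310* was 3.09-fold and 2.93-fold higher, and *LOC_Os05g16420* was 3.14-fold and 2.88-fold higher. *LOC_Os09g32840* was 3.35-fold and 2.9-fold higher and *LOC_Os04g53930* 2.96-fold and 3.01-fold higher. The smallest were *LOC_Os11g32390* at 2.72-fold and 2.74-fold, *LOC_Os09g16780* at 2.44-fold and 2.63-fold, and *LOC_Os01g72760* at 2.38-fold and 2.57-fold. None of these 8 overlapped between genotypes under either condition. Of all probes, 11.1% at 150 mM and 16.5% at 0 mM NaCl had every OE array above every TNG67 array. The rule favours such separation, so it supports nothing here. *LOC_Os01g72760* had uneven pairs: its 3 pairs at 0 mM NaCl gave 1.58, 1.84 and 0.65, the last being the smallest single pair of any member on this scale.

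Members without a locus beyond the group of 5 included some of the weakest cases. CUST_7905 read 7.84, 6.52 and 7.26 in OE against 5.18, 5.83 and 5.51 in TNG67 at 150 mM NaCl, and 7.44, 6.52 and 8.4 in OE against 5.23, 5.2 and 5.47 in TNG67 at 0 mM NaCl. Its difference was 0.69 in pair 2 against a mean of 2.21 in pairs 1 and 3 at 150 mM NaCl. CUST_35284 was the least separated, reading 10.71, 9.21 and 10.08 in OE against 8.82, 8.13 and 8.4 in TNG67 at 150 mM NaCl, and 10.36, 8.09 and 10.69 in OE against 9.29, 6.67 and 8.13 in TNG67 at 0 mM NaCl. At 0 mM NaCl its replicate 2 was the lowest array of both genotypes, so that the groups overlapped while each pair still differed by at least 1. CUST_17799 and CUST_4434 moved together to within 0.24 units of each other once their levels were removed, and their pair 2 differences were all under 1 (0.98 each at 150 mM, and 0.97 and 0.71 at 0 mM NaCl). The remaining 4 members without a locus were 2.14-fold to 3.85-fold higher in OE at 150 mM and 2.53-fold to 3.94-fold higher at 0 mM NaCl, with no overlap. On the quantile scale 6 members had at least 1 pair under 1, with 8 such pairs against 184 at or above it.

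The pattern that ran through many members was a smaller difference within slide 3. Pair 2 was below the mean of pairs 1 and 3 for 24 members at 150 mM NaCl and for 27 at 0 mM NaCl. Both counts include the group of 5 near-identical probes, and CUST_17799 and CUST_4434, which moved together. The counts therefore hold fewer separate patterns than members, and the share over all probes was not worked out. The median over members was 1.42 in pair 2 against 1.78 for pairs 1 and 3 at 150 mM NaCl, and 1.34 against 1.83 at 0 mM NaCl. All members were higher in OE in pair 2 under both conditions, as the rule demanded. On the quantile scale 3 at 150 mM and 2 at 0 mM were so by less than 1. In the 38 probes of the mirrored rule the medians were -1.64 in pair 2 and -1.54 in pairs 1 and 3 at 150 mM NaCl, and -1.53 and -1.63 at 0 mM NaCl. The part of the slides in the size of the members' differences was not tested, and slide 3 has 1 array per group.

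**Figure D4:**
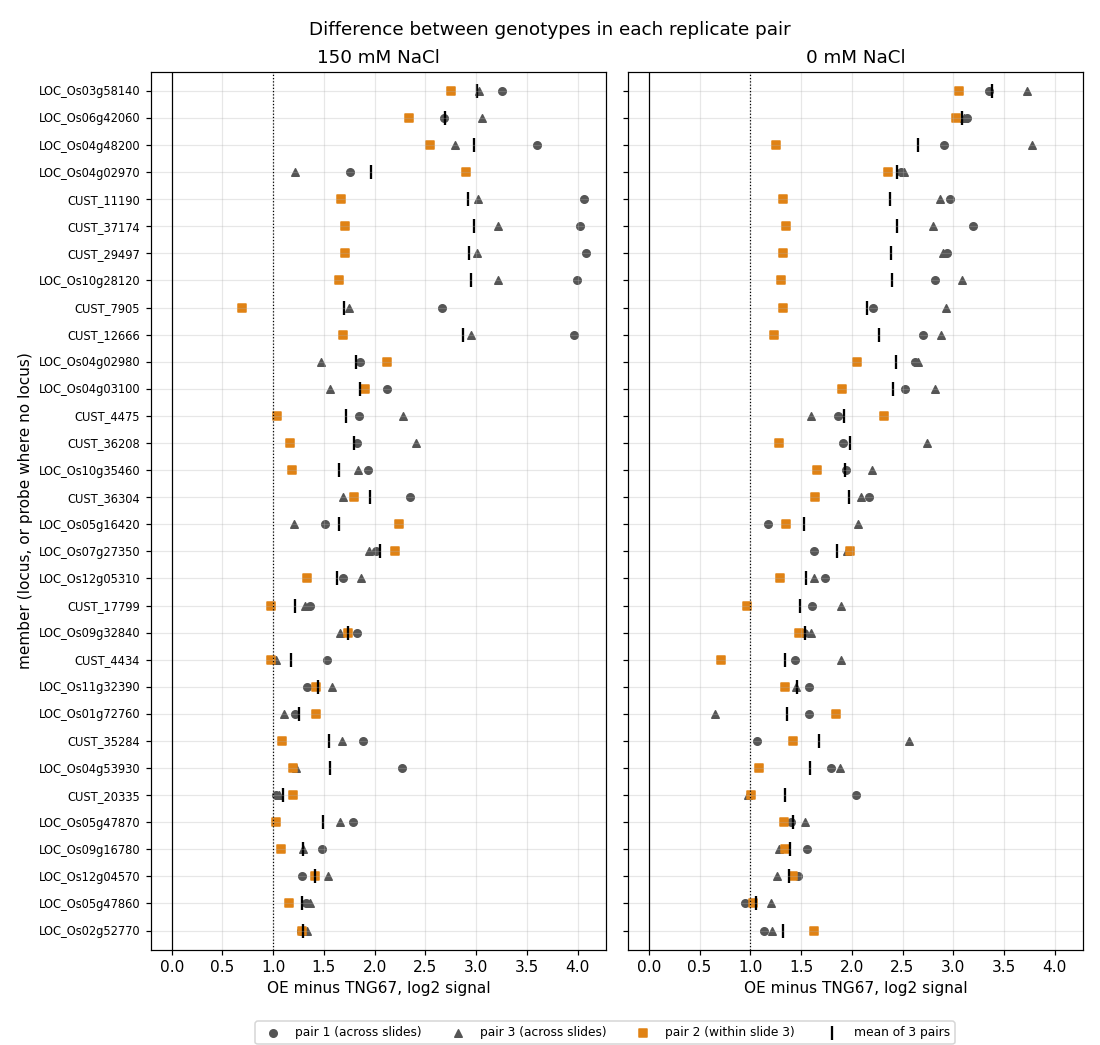
OE minus TNG67 difference in log2 signal (x axis) of each member (y axis) in replicate pairs 1 and 3, across slides (grey), and pair 2, within slide 3 (orange), with the mean of 3 pairs as a bar, at 150 mM NaCl (left) and 0 mM NaCl (right). All points lie above 0, as the rule demanded. Most orange points lie left of the grey ones, with medians of 1.42 against 1.78 at 150 mM and 1.34 against 1.83 at 0 mM NaCl.

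With NaCl the members hardly moved on average, which the window fixed. The mean difference between 150 and 0 mM NaCl ran from -0.35 to 0.49 in OE (median -0.09) and from -0.45 to 0.46 in TNG67 (median -0.02). No member passed limma for NaCl in either genotype or for the interaction of genotype and NaCl. The window limits the NaCl difference in each genotype, and so also the interaction, which is the difference between them. A call needs over 2-fold, so these counts follow from the rule and test nothing. The count at an unadjusted p under 0.05, with no fold limit, was also 0 in each of these comparisons. Members were kept for small mean NaCl differences on these same arrays, so this count tests nothing either. The share of all probes at this unadjusted cut was not worked out. With the adjusted p and the 2-fold limit, 9.95% of all probes passed for NaCl in OE, 9.05% in TNG67 and 0.0942% for the interaction. Single pairs were less quiet than the means. In OE 18 members and in TNG67 12 members had a single pair that differed by over 0.5 between 150 and 0 mM NaCl, and for 23 members in OE and 29 in TNG67 the sign differed among the 3 pairs. The difference between genotypes was smaller at 150 than at 0 mM NaCl for 19 members and larger for 13, with extremes of -0.62 for *LOC_Os04g02980* and 0.6 for CUST_12666 of the group of 5.

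Signals of different probes do not rank their transcripts, but they bear on precision, and many members gave weak signals for probes detected everywhere. The median signal of the members was 8.51 in OE and 6.26 in TNG67 at 150 mM NaCl, and 8.49 in OE and 6.22 in TNG67 at 0 mM NaCl. Of the 32 members, 24 lay below 10.01, the median signal over the 12 arrays of all probes well above background on every array. Low signals were not particular to the members. The median over the 12 arrays was 7.38 in the members, 8.46 in the raised probes outside the window and 8.34 in the probes of the mirrored rule. The median SD between replicates was 0.32 in the members and 0.22 over all probes tested.

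Some probes fell close to the limits of the rule, given here in deposited values. The members with the smallest single pair were CUST_35284 at 1.006, CUST_7905 at 1.035 and *LOC_Os05g47870* at 1.037, and the nearest probes left out for this reason were *LOC_Os08g35750* at 0.985, *LOC_Os03g30120* at 0.98 and CUST_15976 at 0.967. The members nearest to the edge of the NaCl window were *LOC_Os04g02980* at 0.488 and *LOC_Os04g03100* at 0.464 in TNG67, and *LOC_Os06g42060* at -0.436 in OE. The nearest raised probes outside it were CUST_40042 at 0.52 in OE, *LOC_Os08g32540* at -0.537 in TNG67 and *LOC_Os02g29300* at 0.542 in OE. A further 15 probes met both sets of differences but were not well above background on all 12 arrays, and 10 of these were not so on any TNG67 array.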

How the data were processed

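The authors deposited Feature Extraction output (version 10.7.1.1), in which each spot has a signal and local background as an intensity with flags, and normalized log2 values, shifted to the 75th percentile of each array and centred per probe, which chose the members. For the signals printed, intensities were background-corrected with limma's normexp (offset 0, median signals), quantile-normalized without control and outlier spots, and averaged per probe. A probe counted as detected on an array where at least 50% of its spots were well above background, and the 37144 probes detected on at least 3 arrays were fitted with limma 3.58.1 in R 4.3.3 (4 group means, Benjamini-Hochberg adjustment over all probes). Groups and replicate numbers came from the sample titles, since the source names of the OE arrays at 0 mM NaCl repeat a number. Arrays with the same number deviated together (r = 0.172 to 0.68 over probes), which was read as pairing, although number 2 is also a slide. Deviations were taken from a group mean that includes replicate 2. A departure of replicate 2 shared by the groups therefore also moves replicates 1 and 3 together, so these r cannot separate pairing from slide.

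Probes were named by the study's list of differentially expressed genes (8 members) or, for loci listed without a probe, by the only probe whose fold change in the deposited values matched the listed one within 3e-06 log2 units (12 members), a key chosen after the values were seen. Of 423 loci placed both ways, 413 fell on the same probe. The 8 members named by the list were *LOC_Os03g58140*, *LOC_Os04g48200*, *LOC_Os04g02970*, *LOC_Os04g02980*, *LOC_Os04g03100*, *LOC_Os01g72760*, *LOC_Os04g53930* and *LOC_Os02g52770*. The names of the other 12 rest on the match. No member was found in the RefSeq gene table, so gene families, tissue markers, promoters and GCC boxes were not analysed here. The study reported GCC boxes in promoters of its commonly regulated genes, but that record was not looked up for the members. All 20 named members, the unnamed ones with the largest mean difference and those nearest the limits are given by name, as are CUST_17799 and CUST_4434, added after their values were seen. The members and lists were chosen with earlier results of these data known. The fits and the rule were tested on simulated data. Alternatives changed the background correction, scaling, filters, limits, blocks and test, and left out each array.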

Additional observations from a re-analysis of the deposited data

How the results depend on the processing

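The number of members depended on the limits. It stayed at 32 with quantile-normalized signals, but only 26 of these were the same probes. Processed signals less the 75th percentile gave the same 32, but these are the deposited values before centring per probe, so this was no separate scaling. With detection on at least 3 arrays the number was 47. It became 55 at 0.8 per pair, 8 at 1.5 per pair, 20 with a window of 0.3, 68 with a window of 1, and 88 with no demand on single pairs. Leaving out 1 replicate of all groups gave 35 to 72, the most without replicate 2, which is slide 3, when 27 of the 32 remained.

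The members passing as higher in OE were 29 at 150 mM and 30 at 0 mM NaCl, of 721 and 776 of all probes, and 32 and 32 with the replicate block, of 926 and 984. They were 4 and 6 with replicates 1 and 3 averaged, which leaves fewer samples, of 56 and 125, then 0 and 11 with the methods' t-test after adjustment, of 7 and 199, and 19 at 0 mM with slide as a fixed block, of 553 (414 of all probes at 150 mM). Leaving out 1 array gave 22 to 29 at 150 mM and 19 to 31 at 0 mM, the fewest without OE replicate 3 at 0 mM, and 21 and 19 members passed in all 12 such fits. Without TNG67 replicate 2 at 150 mM, 1497 of all probes were called higher at 150 mM in place of 721, and 29 members as before. Interaction calls over all probes, 35 in limma without a block, ran from 0 to 286 over the alternatives, with 65 under the replicate block. With limma and the methods' t-test, 0 members passed for NaCl under the alternatives run. The window limits the means of all 3 pairs, and so favours this count without fixing it where 1 array was left out. For the interaction, which the window also limits, 0 passed with limma, and the t-test was not run.

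The median difference was 1.71 at 150 mM and 1.89 at 0 mM NaCl. It was 1.23 and 1.4 with a normexp offset of 50, which adds to dim signals, 1.42 and 1.34 in replicate 2 alone, and 2.06 at 150 mM with either processed signals less the 75th percentile or deposited values. Leaving out 1 array gave 1.69 to 1.81 and 1.67 to 1.95. Where not stated, the cause was not tested. The GCC box alternatives were planned on promoter sequences, which were missing here, and were not run. The study's own record of GCC boxes was not used. Dim signals, with members mostly below the median level, and 3 arrays per group limit the precision.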
